A study of Macaca mulatta with 24 samples.

Results

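Untreated omental white adipose tissue (WAT) was profiled in 6 control (*C*) female rhesus macaques, which are 6 of the 24 animals of the series. The members were the 6 samples whose labels give the condition control, replicates *C1* to *C6*, and no treated animal entered any value below. The labels give an age of 4 years, while the study's methods give an older age at biopsy. They had carried cholesterol implants, the control for testosterone implants, for 3 years and were fed monkey chow. Biopsies of omental fat were taken in year 3, RNA with an integrity number above 8 was depleted of ribosomal RNA, and 1 library per animal was sequenced as single reads. The controls thus share an implant and repeated handling with the treated animals, and the study chose them as representative of their group. The tissue was not sorted, so a value is the sum over every cell type in the biopsy. In whole tissue, fewer cells of a type and less RNA per cell of that type cannot be told apart.

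Omental fat is a visceral depot that hangs from the stomach as an apron. Its adipocytes take up fatty acids that lipoprotein lipase releases from circulating lipoproteins, build their own by lipogenesis, store both as triglyceride in a lipid droplet and secrete adipokines such as adiponectin and leptin. Unlike subcutaneous fat, the omentum is covered by mesothelium, a single layer of epithelium-like cells, and it holds blood vessels, fibroblasts and many macrophages.

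Between 8873248 (*C2*) and 22040690 (*C4*) reads per library fell on genes, and the median library held 20293398. A single unnamed gene, ENSMMUG00000038258, held 40.2% of the counts in *C2*, 9.92% in *C1* and 1.32% to 2.51% in the other 4 libraries. Values are counts per 1000000 counts (CPM) after TMM normalization, which scales each library so that most genes agree between libraries. Total counts alone would move the values of *C2* by -0.57 on the log2 scale and those of the others by 0.001 (*C1*) to 0.196 (*C3*). A floor of 3 counts corresponds to 0.126 to 0.501 CPM, the highest in the shallow library *C2*. Counting error is the only error that this floor covers. edgeR's filter kept 13105 of the 32386 listed genes, those with enough counts in each of the 6 libraries. A gene that is low in a single library can be dropped, so counts of spread cover kept genes only. Of the 54 paired members of the gene lists that were dropped, 23 had an SD over 1 on the scale below. Some of the 23 held few counts, where counting error alone gives an SD of similar size. Spread is given as the standard deviation (SD) of log2 CPM over the 6 animals. It was called high above 1, which is a typical departure of 2-fold from the mean, and low under 0.2. Over all kept genes, 5.23% had a high spread (3.54% without *C1*) and 28.1% a low one.

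*C1* stood apart from the other 5 libraries. Its log2 CPM values over the kept genes correlated with those of the others at a median r of 0.913, while the medians of *C2* to *C6* lay between 0.951 and 0.9597. These are correlations across genes, which are not independent. The first principal component held 45.8% of the variance and placed *C1* at -72.1, with the others between -7.71 and 32.2. The main counts of high spread are therefore given with and without it. No pair of the 15 control pairs was identical, and each pair differed beyond sampling noise.

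The 25 most abundant named genes held structural RNAs beside genes of lipid storage, the omental lectin *ITLN1*, complement, collagens and translation factors. Among the 3 structural RNAs, the RNA of ribonuclease P (RNaseP_nuc, ENSMMUG00000036452) averaged 11767 ± 3264 CPM (SD, n = 6), the RNA of ribonuclease MRP (RNase_MRP) 5409 ± 2829 CPM (SD, n = 6) and 1 copy of the spliceosomal U2 RNA (ENSMMUG00000035403) 3412 ± 1494 CPM (SD, n = 6). Such RNAs remain in libraries that were depleted of ribosomal RNA and not selected for poly(A). The most abundant named protein-coding gene by mean was *ITLN1* (ENSMMUG00000013391), which encodes the lectin intelectin secreted by omental tissue. It read 35491, 3967, 8316, 8171, 1769 and 4929.9 CPM in *C1* to *C6*, a 20.1-fold range with *C1* far above the rest, and its median was 6550.4 CPM. Next among named genes came *FASN* (ENSMMUG00000012811), the fatty acid synthase, at 192, 8419, 5219.6, 12949, 18913 and 3667 CPM. The order of the means is not the order in each animal, since *FASN* exceeded *ITLN1* in *C2*, *C4* and *C5* and lay below it in *C1*, *C3* and *C6*. Ranks here are ranks of reads, not of molecules, because no transcript lengths were available and long transcripts collect more reads.

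Complement *C3* (ENSMMUG00000008693), the central protein of the complement cascade, spanned 3741 CPM in *C5* to 18269 CPM in *C1* (median 5414). Collagen genes *COL3A1* and *COL1A2* averaged 7494 ± 3322 and 4142 ± 2316 CPM (SD, n = 6 each). *AHNAK*, a very large scaffold protein, averaged 6991 ± 1335 CPM (SD, n = 6) with a range of only 1.77-fold. Lipoprotein lipase *LPL* (ENSMMUG00000004712) read 691, 5675, 5108, 7889, 5317 and 4104 CPM, and the fatty acid binding protein *FABP4* (ENSMMUG00000041192) 1363, 5119, 4044, 5256, 4004 and 2909 CPM. For both genes the *C1* library was the lowest and the other 5 lay within a factor of 2 of each other. A second identifier carries the symbol *FABP4*, so reads of near-identical copies may be split. Fibronectin *FN1* spanned 601 CPM in *C1* to 5285 CPM in *C6* (median 3045), with *C1* and *C4* below the other 4. Of the 25 genes, 8 had a high spread (*ITLN1*, *FASN*, *LPL*, *GPAM*, *FN1*, *THRSP*, *APOE* and *PLIN4*), against 5.23% of all 13105 kept genes. Without *C1*, 1 of the 25 did (*PLIN4*), against 3.54% of all kept genes. There the SDs fell to 0.34 for *LPL*, 0.27 for *APOE*, 0.91 for *ITLN1*, 0.95 for *GPAM* and 0.96 for *FN1*. Translation elongation factor *EEF2* was the 1 gene of the 25 with a low spread, against 28.1% of all kept genes. It read 2073, 1856, 1858, 2031, 1703 and 2014 CPM and had an SD of 0.11.

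The remaining named genes among the 25 were elongation factor *EEF1A1*, spectrin *SPTBN1*, the actin-severing protein *GSN*, the glucose-responsive *TXNIP*, the proteoglycan *DCN*, tenascin *TNXB*, vimentin *VIM* and the lysosomal *PSAP*. Their means ran from 1901 (*PSAP*) to 2881 CPM (*EEF1A1*) and their SDs from 0.24 (*VIM*) to 0.69 (*TNXB*). Just outside stood *IGFBP5*, with a mean of 1884 CPM. Together the 25 named genes held 10.8% to 13.3% of the counts per library after ENSMMUG00000038258 was set aside. A further 9 unnamed identifiers ranked above *PSAP*.

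**Figure D1:**
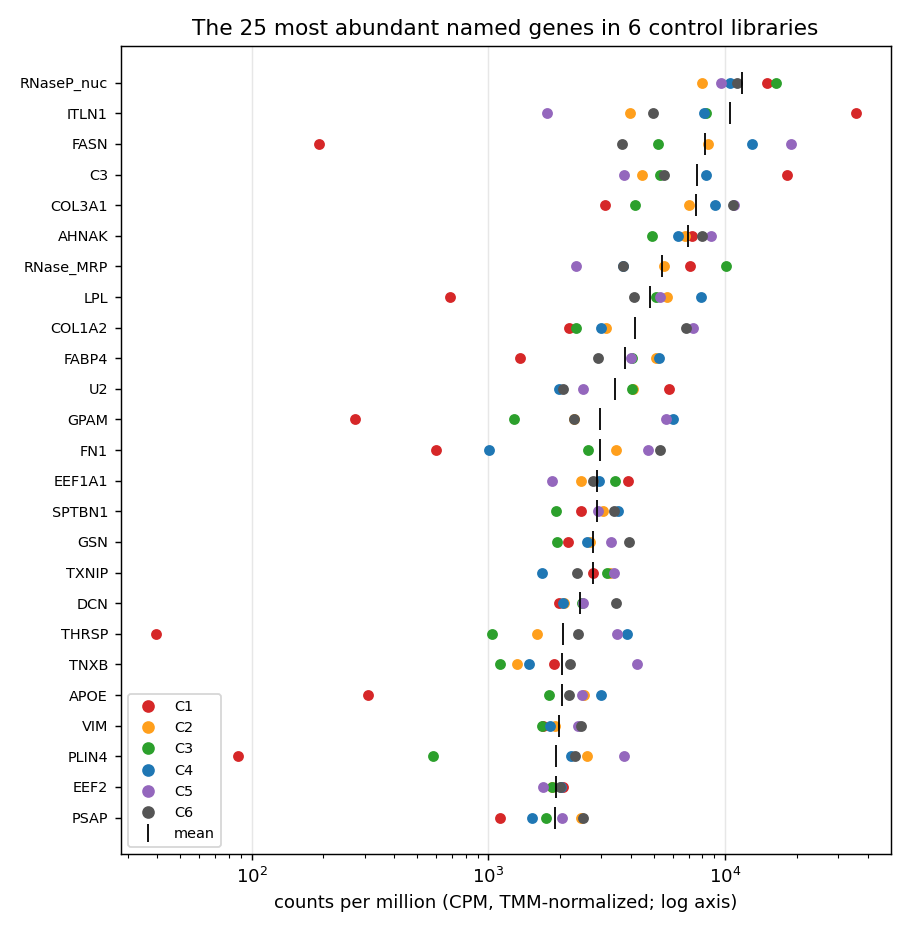
CPM (TMM-normalized, log axis) of the 25 most abundant named genes in the 6 control libraries, 1 point per library and a black bar at the mean. The *C1* points of *FASN*, *THRSP*, *PLIN4*, *GPAM*, *LPL* and *APOE* lie far to the left of the other 5, and those of *ITLN1* and *C3* lie to the right.

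Adipocyte genes were present in every control of this tissue labelled white adipose, at a much lower level in *C1* than in the other 5. Of the adipocyte list, 13 of 14 genes were paired with an identifier and 12 were kept. The summed level of the list was 3044, 19378, 12112, 21319, 19299 and 13579.5 CPM in *C1* to *C6*. *C1* was the lowest library for 11 of the 12 kept members, while it was the lowest for 27.3% of all kept genes. The exception was *ADIPOQ* (ENSMMUG00000002684), the gene of adiponectin, at 529, 1380.4, 1182, 1124, 745 and 512 CPM. *ADIPOQ* was about equally low in *C1* and *C6*, and its SD of 0.62 was the smallest of the list. Leptin (*LEP*, ENSMMUG00000005322), which signals fat stores to the brain, had the largest. It read 4.44, 262, 108, 313, 293 and 692 CPM, and without *C1* its SD fell from 2.58 to 0.95. *THRSP*, a lipogenic nuclear protein, read 39.3, 1609, 1030.1, 3845, 3474 and 2397 CPM (SD of log2 CPM 2.48, without *C1* 0.79). *PLIN4*, which coats lipid droplets, read 87.4, 2614, 586, 2231, 3754 and 2311 CPM. It was low in *C3* too, and its SD without *C1* was 1.03. High spread was found in 7 of 12 kept adipocyte genes with a median SD of 1.16, beside 5.23% and a median of 0.29 over all kept genes. Without *C1* it was found in 1 of 13 with a median SD of 0.58, where all kept genes had a median of 0.26 and 3.54% were called.

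The 2 lists of lipid synthesis had the largest median SDs of the function lists. For fatty acid synthesis, 6 of 8 genes were paired with an identifier and 6 were kept. All 6 were lowest in *C1* and highest in *C5*, whereas *C5* was the highest library for 17.2% of all kept genes. Their summed level was 503, 9249.6, 5845, 15078, 22709 and 4424 CPM in *C1* to *C6*. *FASN* spanned 98.3-fold. *ACLY*, which makes cytosolic acetyl-CoA, read 178, 306, 187, 866, 1960.1 and 237 CPM, and *ACACA*, the acetyl-CoA carboxylase, 71.4, 297, 233, 929, 1206 and 302 CPM. Thus *C4* and *C5* stood above the other 4 for all of these enzymes. The spread of *ACLY* did not rest on *C1* (SD 1.398, without it 1.43), while that of *FASN* did in part (2.38 and 0.96). *MLXIPL*, which encodes the carbohydrate-responsive transcription factor ChREBP, varied least of the list at 7.01 CPM in *C1* to 32.2 CPM in *C5* (median 21.1) (SD 0.78). The list's median SD was 1.39, and 0.91 without *C1*. Of its kept members, 4 of 6 had a high spread, and 2 of 6 did without *C1*, against 5.23% and 3.54% of all kept genes.

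For triglyceride synthesis, 8 of 8 genes were paired with an identifier and 6 were kept, and 5 of 6 had a high spread (median SD 1.46). Without *C1* the count was 1 of 6 (median SD 0.63). Of all kept genes, 5.23% had a high spread, and 3.54% without *C1*. *GPAM*, which starts glycerolipid assembly, read 274, 2305, 1285, 6037, 5618 and 2300.1 CPM. *DGAT2*, which adds the last fatty acid, read 66.1, 1675, 1102, 3150.4, 2417 and 1177 CPM, and *GPD1*, which supplies glycerol 3-phosphate, 173, 1692, 1569, 1497, 1313 and 616 CPM. *DGAT1* varied least at 23.6 CPM in *C1* to 113 CPM in *C4* (median 104). The identifier paired with *LPIN1* held at most 1 count in a library. For fatty acid uptake and binding, 8 of 10 genes were paired with an identifier and 8 were kept. The scavenger receptor *CD36* spanned 484 CPM in *C1* to 2233 CPM in *C4* (median 1570.5) and the acyl-CoA synthetase *ACSL1* 201 CPM in *C1* to 2247 CPM in *C5* (median 1347), the widest of the list (SD 1.304). The transporter *SLC27A4* was the steadiest at 18.2 CPM in *C2* to 24.8 CPM in *C5* (median 19.8) (SD 0.17). High spread was found in 2 of 8 members, and in 0 of 8 without *C1* (median SD 0.34), against 5.23% and 3.54% of all kept genes.

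*PLIN1* and *LIPE*, which coat the lipid droplet and break it down, were again lowest in *C1*. Of the lipid droplet and lipolysis list, 10 of 12 genes were paired with an identifier and 9 were kept. High spread was found in 4 of 9, and in 1 of 9 without *C1*, against 5.23% and 3.54% of all kept genes. The droplet coat gene *PLIN1* read 319.5, 1887, 969, 2289.6, 1579 and 1427 CPM. Hormone-sensitive lipase *LIPE* read 353, 2365, 939, 908, 1149 and 1009 CPM, so that *C2* was more than 2-fold above the other libraries. *ABHD5*, the lipase co-activator, was the steadiest at 56.5 CPM in *C6* to 109 CPM in *C2* (median 86.2) (SD 0.32). All 9 adipogenic transcription factors of the list were kept, and 0 of 9 had a high spread (median SD 0.65), beside 5.23% of all kept genes. *PPARG*, the master regulator of the adipocyte, read 53.3, 239, 183, 272, 203 and 159.5 CPM, with *C1* below the other 5. *CEBPA* varied most, at 20.5 CPM in *C1* to 142 CPM in *C2* (median 64.5), and *RXRA*, the partner of *PPARG*, least at 25.4 CPM in *C1* to 44.3 CPM in *C5* (median 37.1). *EBF1*, an early B cell factor that also acts in adipocytes, spanned 25.3 CPM in *C1* to 94.3 CPM in *C2* (median 73.8).

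Of the adipokine list, 10 of 13 genes were paired with an identifier and 10 were kept. Its sum was set by *ITLN1*, and without that gene it ran from 1635 CPM in *C1* to 3742 CPM in *C2*. The complement protease adipsin (*CFD*) was among the 3 highest and read 489.8, 1026, 636, 669, 423 and 707 CPM. *NAMPT*, which makes a precursor of NAD, was the steadiest at 90.1 CPM in *C5* to 173 CPM in *C3* (median 103) (SD 0.37). Brown fat markers were scarce. *DIO2*, *PRDM16* and *ZIC1* were at or under 3 counts in every control, and *PPARGC1A*, a coactivator also used by white adipocytes, was the 1 kept member at 7.46 CPM in *C1* to 30.7 CPM in *C3* (median 22.7). *UCP1* (ENSMMUG00000015244), the uncoupling protein of brown fat, did not pass the filter. It had 0, 70, 11, 5, 11 and 3 counts in *C1* to *C6*, which is 11.7 CPM in *C2* and at most 0.492 CPM elsewhere.

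Most mesothelial genes were highest in *C1*, where adipocyte genes were low. Of the mesothelial list, 10 of 11 genes were paired with an identifier and 9 were kept. The summed level was 40593, 5180.1, 10137, 10388, 3019.5 and 6257 CPM in *C1* to *C6*, most of it from *ITLN1*. Without *ITLN1* it ran from 1213 CPM in *C2* to 5102 CPM in *C1*. *C1* was the highest library for 8 of the 9 kept members, against 27.2% of all kept genes. Mesothelin (*MSLN*, ENSMMUG00000000835), a surface protein of mesothelium, read 1731, 278, 292, 629.9, 80.1 and 203 CPM. *PKHD1L1*, which encodes a large membrane protein, read 1189, 210.3, 413, 429.7, 245 and 401 CPM. Calretinin (*CALB2*), a mesothelial marker that the filter dropped, went the other way, with 0.456, 5.01, 3.37, 5.56, 5.68 and 4.79 CPM and *C1* below the other 5. Keratin *KRT19* varied least at 201 CPM in *C6* to 456 CPM in *C1* (median 268) (SD 0.43). The transcription factor *WT1*, also on the list of depot identity factors, read 132, 67.6, 91.98, 40.8, 104 and 83.7 CPM and was lowest in *C4*. Among the other 5 animals *ITLN1* still ran from 1769 CPM in *C5* to 8316 CPM in *C3*. High spread was found in 3 of 9 mesothelial genes, and in 1 of 10 without *C1*, against 5.23% and 3.54% of all kept genes. Under the other normalizations tried (RLE, upper quartile, total counts alone, and TMM without ENSMMUG00000038258), *C1* again had the lowest adipocyte sum and the highest mesothelial sum.

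Fibroblast and matrix genes were highest in *C5* and *C6*. All 12 genes of the fibroblast and preadipocyte list were kept. *C5* and *C6* were the 2 highest libraries for 10 of them, and for 7 of the 12 kept matrix genes, against 8.71% of all kept genes. *COL1A1*, a chain of type I collagen, read 444, 1073, 606, 1088, 4016 and 2493 CPM, a 9.05-fold range, and *COL3A1* 3105, 7009, 4155, 9061, 10852 and 10782 CPM. The fibroblast receptor *PDGFRA* was steady at 272 CPM in *C1* to 449 CPM in *C6* (median 341) (SD 0.23), and *DCN* spanned 1989.6 CPM in *C1* to 3463 CPM in *C6* (median 2289). *DPP4*, a surface peptidase, had the widest spread of the fibroblast list (SD 1.39) and was highest in *C1*, at 413, 53.2, 89.9, 143, 26.1 and 52.6 CPM. Among matrix genes *COL15A1*, a basement membrane collagen, varied most, at 35.04 CPM in *C1* to 608 CPM in *C5* (median 305), and without *C1* its SD fell from 1.48 to 0.57. Laminin *LAMA4* varied least at 783 CPM in *C3* to 1651 CPM in *C4* (median 1227) (SD 0.39). A high spread was seen in 2 of 12 fibroblast genes and 5 of 12 matrix genes, beside 5.23% of all kept genes. Without *C1* it was seen in 1 of 12 of each list, beside 3.54%. Both lists hold *COL1A1* and *COL3A1*.

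Endothelial genes had a smaller median SD than the adipocyte, mesothelial and macrophage lists. All 10 endothelial genes were kept and 0 of 10 had a high spread (median SD 0.55, without *C1* 0.34), beside 5.23% of all kept genes. The von Willebrand factor gene *VWF* spanned 244 CPM in *C1* to 920.4 CPM in *C5* (median 607), *PECAM1* (CD31) 186 CPM in *C1* to 398 CPM in *C6* (median 291) and *EGFL7*, an angiogenic factor, 65.9 CPM in *C1* to 108 CPM in *C6* (median 84.6). The VEGF receptor *KDR* ran the other way, highest in *C1* at 275 CPM and lowest in *C5* at 85.6 CPM. Of the lymphatic endothelial list, 5 of 6 genes were paired with an identifier and 5 were kept. High spread was found in 0 of 5, again beside 5.23% of all kept genes. Podoplanin (*PDPN*), which mesothelium also expresses, read 50.1 CPM in *C2* to 132 CPM in *C1* (median 81.01), the hyaluronan receptor *LYVE1*, which macrophages share, 23.99 CPM in *C1* to 85.9 CPM in *C6* (median 67.5), and reelin (*RELN*) 23.2 CPM in *C3* to 85.2 CPM in *C4* (median 39.2). Of the smooth muscle and pericyte list, 9 of 10 genes were paired with an identifier and 9 were kept. *C5* was the highest library for 8 of the 9, against 17.2% of all kept genes. The smooth muscle myosin *MYH11* read 97.9, 90.1, 135, 90.9, 373 and 57.5 CPM and the actin *ACTA2* 60.5, 141, 119.5, 99.3, 284 and 89.6 CPM. *NOTCH3*, a receptor of mural cells, was the 1 gene of high spread (SD 1.07, without *C1* 0.74), and the 1 gene of high spread without *C1* was *MYH11* (SD 1.03). *TAGLN*, an actin-binding protein of smooth muscle, was steady at 300.3 CPM in *C2* to 387 CPM in *C5* (median 352) (SD 0.14).

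Macrophage genes were lowest in *C1* and *C4* and highest in *C6*. Of the macrophage list, 10 of 12 genes were paired with an identifier and 10 were kept. *C1* and *C4* were the 2 lowest libraries for 7 of the 10, against 8.44% of all kept genes, and *C6* was the highest for 8, against 11.6%. This pairing of libraries was noticed in these data. The summed level was 415, 1578, 1129.8, 848, 1341 and 2191 CPM. *STAB1*, a scavenger receptor, read 119, 237, 228, 257, 461 and 629.8 CPM, the growth factor receptor *CSF1R* 47.97, 215, 117, 124, 148 and 281 CPM and the transglutaminase *F13A1* 86.8 CPM in *C1* to 307 CPM in *C6* (median 179). *VSIG4*, a complement receptor of resident macrophages, varied most of the list at 10.6, 105, 105, 18.1, 46.4 and 101 CPM (SD 1.44). The haemoglobin scavenger receptor *CD163* spanned 39.4 CPM in *C1* to 172 CPM in *C6* (median 91.5). Of the macrophage genes, 5 of 10 had a high spread, and 2 of 10 did without *C1*, against 5.23% and 3.54% of all kept genes.

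Markers of lipid-associated macrophages were highest in *C6*. Of that list, 6 of 6 genes were paired with an identifier and 5 were kept. *C6* was the highest library for 4 of the 5, against 11.6% of all kept genes. The glycoprotein gene *GPNMB* read 161, 286, 173, 100.04, 178 and 542 CPM and osteopontin (*SPP1*) 12.3, 1.67, 3.98, 4.55, 6.35 and 34.5 CPM. The tetraspanin *CD9*, which many other cells express, was instead highest in *C1*, at 91.97 CPM in *C2* to 287 CPM in *C1* (median 123). Chitotriosidase (*CHIT1*) did not pass the filter, with 2 counts in *C1* and 1939 in *C6*. Among these genes 3 of 5 had a high spread, and 4 of 6 without *C1*, against 5.23% and 3.54% of all kept genes. The neutrophil list was fully paired, and 4 of 6 were kept. The calprotectin genes *S100A8* and *S100A9*, which monocytes share, were lowest in *C1* and *C4*. *S100A9* read 1.42, 27.4, 23.2, 1.14, 8.68 and 10.7 CPM and *S100A8* 0.684, 18.9, 17.3, 0.506, 6.08 and 6.93 CPM. The receptor *CSF3R* did not follow them and ran from 2.02 CPM in *C6* to 4.44 CPM in *C1*. In all, *C1* and *C4* were the 2 lowest libraries for 2 of the 4 kept neutrophil genes, against 8.44% of all kept genes.

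Lymphocyte genes ranged from values near the floor to that of *CD4*. Of the T and NK cell list, 9 of 12 genes were paired with an identifier and 5 were kept. The T cell receptor subunit *CD3E* spanned 0.548 CPM in *C4* to 1.72 CPM in *C6* (median 0.9001), and *CD4*, which macrophages also express, led the list at 11.5 CPM in *C1* to 63.9 CPM in *C6* (median 44.4). Granzyme B (*GZMB*) varied most, with 12.2 CPM in *C2* and 0.984 CPM in *C5*. Of the B and plasma cell list, 7 of 9 were paired and 2 were kept. The scaffold protein *BANK1* led it at 4.8997 CPM in *C1* to 27.7 CPM in *C6* (median 18.9). *MS4A1* (CD20), which was not kept, spanned 0.216 CPM in *C3* to 2.67 CPM in *C2* (median 0.587), and *TNFRSF17* was at or under 3 counts in every control. The dendritic cell list held 4 kept genes of 6, led by *IRF8* at 28.3 CPM in *C1* to 142 CPM in *C2* (median 74.4), and *FCER1A* varied most at 1.12 CPM in *C5* to 7.59 CPM in *C4* (median 2.63). For mast cells, 4 of 6 genes were paired with an identifier and 4 were kept, and all 4 were highest in *C4*, against 13.5% of all kept genes. In *C4* carboxypeptidase *CPA3* read 30.05 CPM beside 6.34 CPM in *C2*.

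Most genes listed for other organs were scarce. As a check for neighbouring tissue this is partial, since no list covered stomach or spleen. Of the pancreas list 4 of 6 genes were paired with an identifier, and of the intestinal epithelium list 3 of 5. Pancreas and intestinal epithelium lists summed to at most 0.421 and 0.313 CPM in a library, and none of their members was kept. *PRSS1*, *PNLIP*, *VIL1* and *FABP1* were at or under 3 counts in every control. Albumin (*ALB*) read at most 0.501 CPM and apolipoprotein *APOA1* at most 2.14 CPM, and *TTR* was at or under 3 counts. The antitrypsin gene *SERPINA1*, which monocytes and macrophages also express, was the 1 kept hepatocyte marker at 3.93, 78.1, 58.2, 13.1, 36.6 and 58.3 CPM. Its low libraries were again *C1* and *C4*. Skeletal muscle genes appeared in *C4*, where *ACTA1* had 101 counts and *CKM* 34, beside at most 15 and 0 counts in another control. The troponin *TNNT3*, lowest in *C4*, read 15.1 CPM in *C4* to 32.7 CPM in *C6* (median 22.4) and did not follow them. Erythroid genes differed between animals. The alpha globin gene *HBA* read 82.5, 27.7, 97.7, 76.1, 141 and 24.2 CPM. The heme enzyme *ALAS2* spanned 1.22 CPM in *C6* to 20.7 CPM in *C3* (median 12.3), and all 3 kept erythroid genes were lowest in *C6*, against 11% of all kept genes, although their list sum was lowest in *C2* with total counts alone as the scale. *HBA1* carries a separate identifier, which was at or under 3 counts. Of the Schwann cell list, 4 of 6 genes were paired with an identifier and 4 were kept. *NCAM1* read 65.2 CPM in *C6* and at most 19.01 CPM elsewhere.

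**Figure D2:**
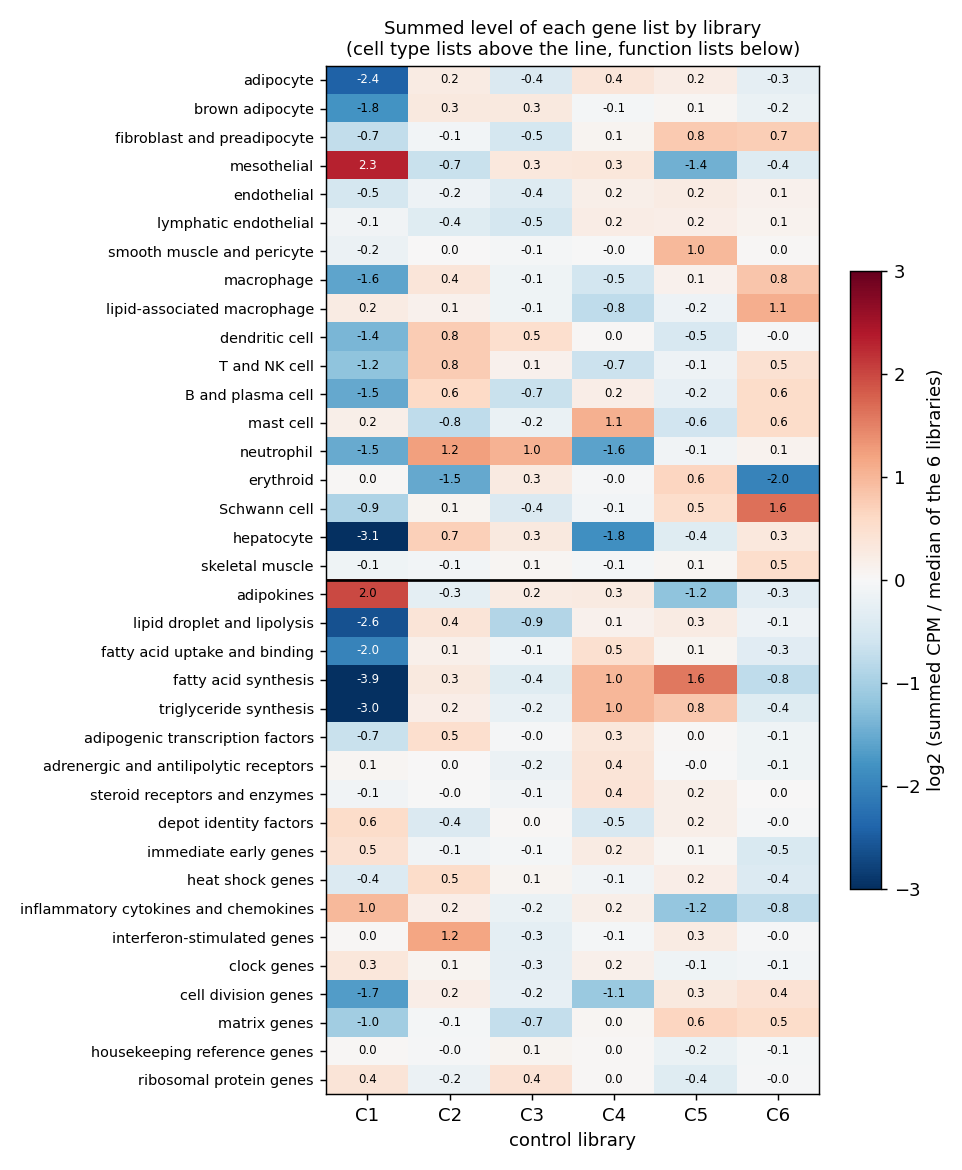
Summed CPM of each gene list in each control library, as log2 of the ratio to the median of the 6 libraries, for lists with a mean sum of at least 5 CPM. Colours saturate at 3 and the numbers give the value. *C1* is low for adipocyte and lipid lists and high for mesothelial genes and adipokines (through *ITLN1*). *C1* and *C4* are low for macrophage, cell division and neutrophil genes (the last through *S100A8* and *S100A9*). *C5* is high for fatty acid synthesis and smooth muscle.

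The filter dropped some steroid receptor and enzyme genes that varied. Of the steroid receptor and enzyme list, 11 of 12 genes were paired with an identifier and 9 were kept. High spread was found in 0 of 9 (median SD 0.52), beside 5.23% of all kept genes (median SD 0.29). The glucocorticoid receptor *NR3C1* read 194, 183, 192, 225, 186 and 199.5 CPM, an SD of 0.11. The oestradiol dehydrogenase *HSD17B12*, which also elongates fatty acids, spanned 30.5 CPM in *C1* to 137 CPM in *C4* (median 71.5), and steroid sulfatase (*STS*) varied most at 4.61 CPM in *C1* to 20.4 CPM in *C2* (median 16.9). Of the dropped members, the cortisol-regenerating enzyme *HSD11B1* read 0.285, 5.68, 3.29, 3.03, 3.399 and 3.45 CPM (SD 1.38, without *C1* 0.35), and the aromatase gene *CYP19A1* held 43 counts in *C1* and at most 11 in another control. For receptors that switch lipolysis on or off, 9 of 10 genes were paired with an identifier and 6 were kept. The dropped adrenergic receptors *ADRB3*, *ADRA2A* and *ADRB1* had SDs of 1.95, 1.82 and 1.33, each lowest in *C1*. The insulin receptor *INSR* was steady at 43.2 CPM in *C3* to 57.1 CPM in *C2* (median 51.7) (SD 0.16). The prostaglandin receptor *PTGER3* spanned 121 CPM in *C5* to 219.7 CPM in *C4* (median 137) and the neuropeptide Y receptor *NPY1R* 9.401 CPM in *C1* to 30.2 CPM in *C2* (median 17.6). The adenosine receptor *ADORA1*, which restrains lipolysis, was the 1 kept gene of high spread, at 1.08, 11.4, 9.73, 22.8, 17.98 and 12.9 CPM, and without *C1* its SD fell from 1.53 to 0.49. Of the depot identity factors, 8 of 13 genes were paired with an identifier and 4 were kept. *GATA6* spanned 32.05 CPM in *C2* to 60.5 CPM in *C5* (median 47.5) and *NR2F1* 14.7 CPM in *C5* to 42.05 CPM in *C1* (median 23.2). *HOXC10*, a homeobox gene linked to subcutaneous depots, was the steadiest of the 4 but held 7 to 31 counts a library, at 0.925 CPM in *C6* to 1.42 CPM in *C1* (median 1.12).

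Cell division genes divided the animals as macrophage genes did. Of 10 paired genes, 9 were kept, and *C1* and *C4* were the 2 lowest libraries for 8 of the 9, against 8.44% of all kept genes. The proliferation marker *MKI67* read 2.22, 36.9, 18.2, 7.29, 41.2 and 35.7 CPM and topoisomerase *TOP2A* 4.33, 31.2, 24.1, 6.11, 34.3 and 42.99 CPM. *PLK1* varied little at 22.5 CPM in *C1* to 36.4 CPM in *C2* (median 32.8). High spread was found in 3 of 9, and in 2 of 9 without *C1*, against 5.23% and 3.54% of all kept genes. Whether the low values of both gene groups in *C1* and *C4* have a common source was not tested.

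Interferon-stimulated genes were highest in *C2*. Of 12 genes 10 were paired and kept, and *C2* was the highest library for 9 of them, against 16.2% of all kept genes. *OAS2*, an antiviral enzyme, varied most (SD 0.83), from 12.1 CPM in *C1* to 56.1 CPM in *C2* (median 19.02), and *IFI6* least at 53.9 CPM in *C6* to 89.8 CPM in *C2* (median 62.3). *MX1* spanned 38.1 CPM in *C4* to 125 CPM in *C2* (median 67.05). *C2* was the shallowest library and its TMM factor was 0.675. With total counts alone as the scale, *C2* was the highest for 3 of 10 although its sum remained the highest. Under RLE, upper quartile and TMM without ENSMMUG00000038258, it was again the highest for 9 of 10. The chemokine *CXCL10*, which interferon gamma induces and which did not pass the filter, had 141 counts in *C2* and 10 to 59 in the others.

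Of the inflammatory cytokine and chemokine list, 6 of 13 genes were paired with an identifier and 2 were kept. *CCL2* read 7.29 CPM in *C1* to 26.4 CPM in *C4* (median 11.03), and the prostaglandin synthase *PTGS2* read 73.4, 11.9, 22.6, 17.9, 5.73 and 9.37 CPM, highest in *C1*. Immediate early genes, which respond within minutes to handling of tissue, had a median SD of 0.45 (13 of 20 genes were paired with an identifier and 11 were kept). *FOSL2* spanned 87.6 CPM in *C6* to 245 CPM in *C4* (median 131), *MYC* 63.3 CPM in *C6* to 168 CPM in *C1* (median 88.3) and *KLF4* 54.7 CPM in *C4* to 116 CPM in *C5* (median 78.5). *NR4A3* was the 1 gene of high spread, with 19.4 CPM in *C2* and 1.73 CPM in *C4*, and *JUNB* was the steadiest (SD 0.29). Heat shock genes (4 of 9 genes were paired with an identifier and 4 were kept) were all highest in *C2*, against 16.2% of all kept genes. In *C2*, *HSPA8* read 1838 CPM and *HSPH1* 241 CPM, and their lowest values were 1015 CPM in *C1* and 70.6 CPM in *C6*. With total counts alone as the scale, *C2* was the highest for 1 of the 4. Under RLE, upper quartile and TMM without ENSMMUG00000038258, it was again the highest for all 4. Clock genes (13 of 14 genes were paired with an identifier and 12 were kept) showed no high spread, beside 5.23% of all kept genes. Their median SD was 0.36, and that of all kept genes 0.29. *ARNTL*, the core activator, varied most at 3.82, 11.9, 9.26, 3.498, 8.901 and 9.88 CPM, with *C1* and *C4* low. *NR1D2* spanned 182 CPM in *C5* to 319 CPM in *C1* (median 247), *CRY2* 88.3 CPM in *C3* to 142 CPM in *C4* (median 119), *PER3* 72.1 CPM in *C3* to 132 CPM in *C1* (median 85.3) and *PER2*, the steadiest, 46.7 CPM in *C6* to 71.3 CPM in *C5* (median 61.98) (SD 0.23). The identifier paired with *CLOCK* held at most 1 count in a library.

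Across all 13105 kept genes, the median SD of log2 CPM between control animals was 0.29 and the middle 50% of genes lay between 0.19 and 0.496. Counting error alone would give a median SD of 0.08. A high spread was found in 686 genes (5.23%) and a low spread in 3687 (28.1%), of which 238 had no more spread than counting error gives. *C1* was the lowest library for 351 of the 686 genes (51.2%) and *C2* the highest for 201 (29.3%), against 27.3% and 16.2% of all kept genes. Without *C1*, 472 genes had a high spread, 386 of them among the 686, and 35.3% had a low one. Low spread was rarer where counts were few. It was found in 6.13% of 2024 genes under 5 CPM, 28.9% of 7264 genes from 5 to 50 CPM and 38.4% of 3817 genes from 50 CPM upwards. The corresponding shares of high spread were 8.004%, 5.34% and 3.56%.

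Among kept genes, the 20 most variable named ones with a mean of at least 5 CPM had SDs from 2.07 (*NCF1*) to 3.06 (*C4BPA*). The next gene outside, another Metazoa_SRP copy, had an SD of 2.07 as well. Apart from *OTOGL*, the 20 fell into 4 kinds, set by the libraries that were low or high or, for the last kind, by the gene name. Lipid genes *FASN*, *THRSP* and *LEP* were lowest in *C1*, and so was *LINGO4*, a leucine-rich repeat gene, at 1.71, 32.2, 17.3, 232, 177 and 301 CPM. Myeloid genes were lowest in *C1* and *C4*. Among these *CD5L*, a protein secreted by macrophages, read 1.196, 117, 53.3, 1.26, 17.2 and 39.6 CPM, the scavenger receptor *OLR1* 0.684, 39.2, 15.7, 1.14, 6.71 and 17.7 CPM and the Fc receptor *FCGR3* 3.42, 127, 76.1, 5.605, 17.4 and 52.996 CPM. *NCF1*, a subunit of the phagocyte oxidase, read 1.31, 69.9, 27.8, 2.87, 13.4 and 13.7 CPM, and *S100A8* belonged here too.

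The third kind was highest in *C1* or *C4*, the same libraries in which myeloid genes were low. *C4BPA* (ENSMMUG00000013738), a complement inhibitor, read 216, 8.85, 11.8, 114, 0.537 and 5.34 CPM. Gremlin (*GREM1*), an antagonist of bone morphogenetic proteins, read 262, 18.2, 3.81, 299.7, 5.14 and 37.4 CPM, ceruloplasmin (*CP*) 81.9, 1.34, 21.3, 68.6, 2.46 and 4.08 CPM and the transcription factor *FOXP2* 58.4, 6.34, 1.601, 21.6, 2.42 and 1.81 CPM. The endocytic receptor *LRP2* was high in *C1* alone, at 173, 17.03, 37.1, 18.1, 1.48 and 13.9 CPM. The fourth kind was 5 copies of Metazoa_SRP, the RNA of the signal recognition particle, which was named for 566 identifiers in the table. The most variable copy (ENSMMUG00000039557) read 8.09, 2.67, 276, 185, 8.36 and 123 CPM, high in *C3*, *C4* and *C6*, and the other 4 copies were highest in *C3* or *C6*. Reads of near-identical copies can be assigned to one or another, so these values are uncertain by copy. *OTOGL*, an otogelin-like gene, was low in *C1* and *C4* like the myeloid genes, with 0.798, 4.34, 26.9, 0.801, 18.1 and 14.8 CPM. Of the 20 genes, 17 still had an SD over 1 without *C1*. The 3 that did not were *FASN*, *THRSP* and *LEP*.

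Without the filter, 4 of these 20 genes remained among the 20 most variable named genes (*C4BPA*, *LINGO4*, *CD5L* and 1 copy of Metazoa_SRP), and the SDs ran up to 4.16 for transferrin (*TF*), the iron carrier of plasma. *TF* read 148, 385, 481, 216, 0.134 and 24.8 CPM, with 3 counts in *C5*. Genes low in *C1* and *C4* were again among them. The scavenger receptor *MARCO* read 0.05697, 80.1, 52.3, 0.126, 17.3 and 42.9 CPM and the secreted phospholipase *PLA2G2D* 0.114, 89.8, 27.1, 0.759, 35.6 and 36.2 CPM. The homeobox gene *BARX1*, which patterns the embryonic stomach, read 0.171, 37.2, 33.6, 0.211, 35.02 and 25.6 CPM and was near the floor in the same libraries. *HOXA10*, a homeobox gene of posterior identity, was high there instead, at 46.03, 2.504, 0.1298, 41.8, 0.358 and 1.55 CPM. *HBQ1*, the theta globin gene, read 31.7, 36.1, 47.9, 36.5, 0.0447 and 11.6 CPM and the lipid flippase *ATP8A2* 17.9, 0, 37.3, 0.337, 0.134 and 30.5 CPM, near 0 in *C5* and in *C2*, *C4* and *C5*. The other genes were *CHIT1*, the protease gene *ADAMDEC1* and further copies of Metazoa_SRP. All 20 had an SD over 1 without *C1*.

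The 20 most stable named genes with a mean of at least 50 CPM had SDs from 0.03 to 0.06, close to the 0.02 to 0.05 that counting error alone gives them. By their known roles, the sorting nexin *SNX1*, *VPS41*, *VPS13C*, *RAB14* and *RER1* act in endosomal and membrane traffic, *HNRNPL*, *SRRM1* and *CCAR1* in RNA processing or transcription, and *MBD1*, *XRCC5*, *NAP1L4* and *KDM3A* on chromatin or DNA. *SEPTIN2*, *DSTN* and *DYNLRB1* belong to the cytoskeleton and its motors. The other 5 were *TRPC4AP*, *TCF25*, *SLC39A6*, *ANKRD10* and *SHOC2*. *SNX1* (ENSMMUG00000014005) read 189, 186, 189.5, 199, 189.6 and 192 CPM in *C1* to *C6*. *XRCC5*, the Ku80 subunit of DNA end joining, read 286, 297, 290.1, 295, 269 and 289.7 CPM, and *SEPTIN2*, the most abundant of the 20, 428, 423, 462, 458, 436 and 444 CPM. The next gene outside, *HLTF*, had an SD of 0.0606.

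**Figure D3:**
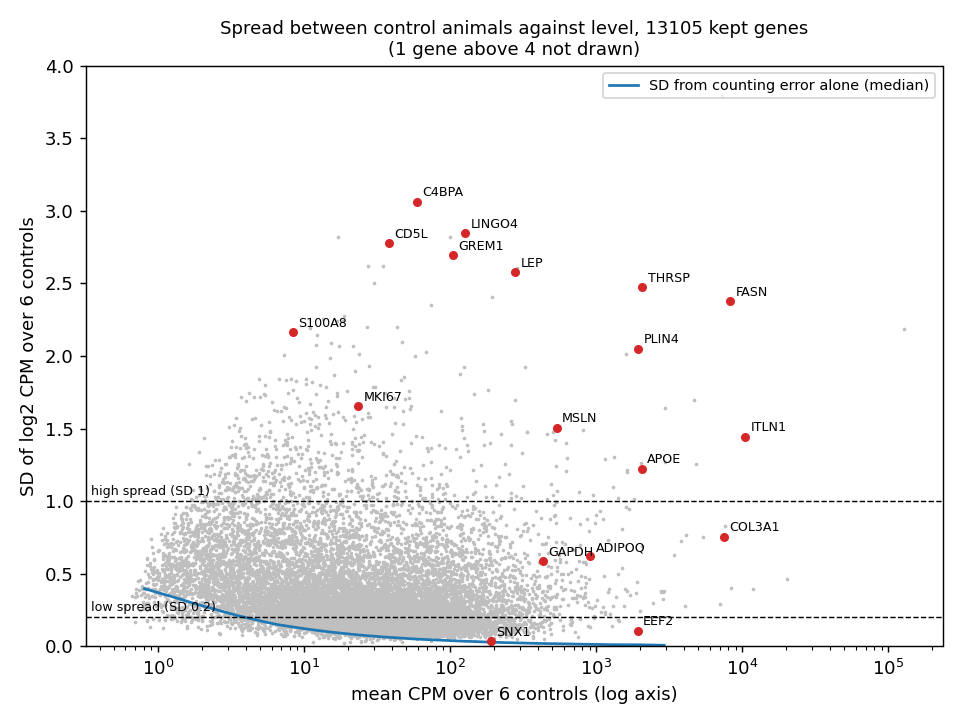
SD of log2 CPM over the 6 controls against mean CPM (log axis), 1 grey point per kept gene, with named examples in red and the median SD that counting error alone gives in blue. Dashed lines mark high spread (SD 1) and low spread (SD 0.2). *C4BPA*, *LINGO4*, *LEP*, *THRSP* and *FASN* lie far above the bulk, and *SNX1* lies on the line of counting error.

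Genes in common use as references for normalization had a low spread about as often as kept genes in general. Of 19 such genes, 17 were paired and kept. Low spread was found in 5 (29.4%), against 28.1% of all kept genes, and their median SD of 0.302 was about that of all genes. The comparison was not matched for level, and low spread was found in 38.4% of kept genes from 50 CPM upwards. *IPO8*, a nuclear import receptor, was the steadiest at 99.6, 100.3, 97.8, 91.5, 94.1 and 89.9 CPM (SD 0.07). *GAPDH*, the glycolytic enzyme, was the least steady at 189, 483, 378, 484, 591 and 480.03 CPM, a 3.13-fold range with *C1* lowest (SD 0.58, without *C1* 0.23). The cytoskeletal actin *ACTB* spanned 948 CPM in *C1* to 1456 CPM in *C2* (median 1254), *EEF1A1* 1854 CPM in *C5* to 3866 CPM in *C1* (median 2840.2) and the ribosomal protein *RPL13A* 589.7 CPM in *C5* to 1115 CPM in *C3* (median 773). Without *C1* the median SD of the list was 0.21, beside 0.26 for all kept genes.

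Ribosomal protein genes were lowest in *C5* under every scaling tried except total counts alone. Of the list, 19 of 22 genes were paired with an identifier and 19 were kept. Each of the 19 was lowest in *C5*, against 19.5% of all kept genes, and highest in *C3* (12) or *C1* (7). Their summed level was 9507, 6489, 9806, 7457, 5638 and 7114 CPM in *C1* to *C6*. *RPL4* spanned 731 CPM in *C5* to 1179 CPM in *C1* (median 909), *RPS14* 412 CPM in *C5* to 901 CPM in *C3* (median 565) and *RPS3* 377 CPM in *C5* to 802 CPM in *C1* (median 549). *RPL5* had the largest SD (0.46) and *RPS2*, a symbol carried by 2 identifiers, the smallest (0.22). None had a high or a low spread, beside 5.23% and 28.1% of all kept genes. Under RLE, upper quartile and TMM without ENSMMUG00000038258, each of the 19 was again lowest in *C5*. With total counts alone as the scale, 0 of the 19 were lowest in *C5* and the lowest sum was that of *C2*.

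**Figure D4:**
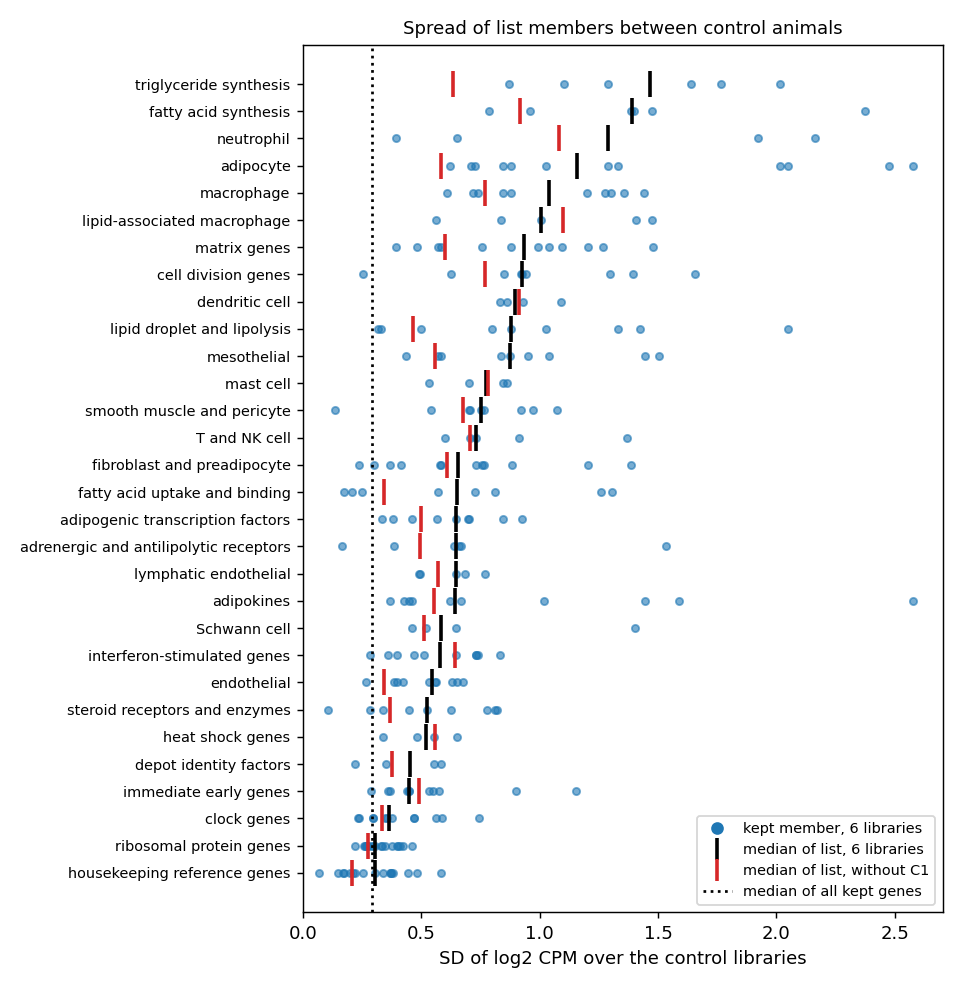
SD of log2 CPM over the 6 control libraries for the kept members of each list with at least 4 kept members, 1 point per gene, with the list's median over 6 libraries (black bar) and without *C1* (red bar). The dotted line is the median of all kept genes. Lipid synthesis, neutrophil, adipocyte and macrophage lists lie to the right, clock, ribosomal protein and reference genes near the line, and the red bars of the lipid lists lie well to the left of the black ones.

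Whether adiponectin varied with a marker of each other cell type was asked over the 6 animals, as 6 relations of log2 CPM. Each was tested by an exact two-sided permutation test over all 720 pairings, whose smallest possible p is 0.00278. Against mesothelial *MSLN*, r was -0.13 (p = 0.785) and rho 0.09 (p = 0.919) by that exact permutation test. For endothelial *PECAM1*, r was -0.08 (p = 0.871) and rho -0.37 (p = 0.497) by the same exact test. The macrophage gene *CD163* gave r = 0.04 (exact permutation p = 0.936) and rho = -0.03 (p = 1). The collagen *COL1A1* gave r = -0.204 (exact permutation p = 0.667) and rho = -0.26 (p = 0.658). With smooth muscle *ACTA2*, r was 0.34 (exact permutation p = 0.536) and rho 0.6 (p = 0.242). With *LEP*, the other main adipokine, r was 0.303 (exact permutation p = 0.717) and rho -0.31 (p = 0.564). No relation passed Benjamini-Hochberg adjustment over the 6 (exact permutation tests, adjusted p = 0.936 for each r and at least 0.988 for rho). Without *C1* and *C6*, the libraries farthest from the median of *ADIPOQ*, r was 0.74 for *MSLN*, -0.59 for *PECAM1*, 0.05 for *CD163*, -0.86 for *COL1A1*, -0.797 for *ACTA2* and -0.29 for *LEP*, over 4 animals and with no test. With 6 animals only a near-perfect order could have passed, so a weaker relation could not have been called.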

How the data were processed

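RNA from omental WAT was measured in 24 animals, and the 6 control libraries were used here, grouped by their condition label. The authors trimmed single reads (Trimmomatic 0.36 in the submitters' processing notes), mapped them with STAR (listed there as 2.5.2b) against rheMac8, a rhesus assembly, and deposited the raw, unscaled count of each gene. The counting tool and its strand setting are not given in the sources used here, so overlapping, antisense and near-identical genes are uncertain. Total counts per library ran from 8873248 to 22040690.

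Counts were normalized by TMM in edgeR 4.0.16 (R 4.3.3) after filterByExpr (minimum count 10, minimum total 15). Spread is the SD of log2 CPM with a prior count of 2. The spread calculation was tested on simulated data. Of 32386 identifiers, 17806 were given a symbol, 1661 of them as named in the study's tables and the rest from a reference list of gene names. Where several identifiers carry a symbol, those of the study's tables were used first. Of 373 genes in 38 lists, 307 were paired. No gene lengths or positions were used.

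Named genes are the 25 with the highest mean CPM, the 20 with the largest SD from a mean of 5 CPM, the 20 with the smallest SD from 50 CPM, and per list the 3 highest, the most and least variable kept members and those at or under 3 counts throughout. The choices by SD were made among kept genes. The 20 most variable without the filter, *CXCL10*, *CHIT1*, *CALB2*, the dropped receptor and steroid genes and the genes seen in single libraries were named after their values were seen, and so were the libraries counted as highest or lowest for a list. The members, lists and thresholds were chosen with earlier results of these data known. The alternatives were RLE, upper-quartile and total-count scaling, leaving out ENSMMUG00000038258, each animal or the libraries rich in that gene, other filters, prior counts of 0.5 and 5, DESeq2 1.42.0 variance-stabilized values, edgeR's biological coefficient of variation (BCV), and stricter thresholds. Some genes that this rule names are not reported here. There is no test between groups, and relations between genes were tested by exact permutation.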

Additional observations from a re-analysis of the deposited data

Results flagged for a closer look

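In 12 of the 101 gene or list values examined for a library that stands far from the other 5, the gap between the outermost library and its neighbour exceeded 0.625 of the whole range on the log2 scale, Dixon's limit for 6 samples. Chance passes this limit in about 1 of 20 groups, and genes and lists that share members are not independent. Of these values, 9 set *C1* apart, and in each of them *C1* was the lowest.

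For lists, *C1* had the lowest summed level for adipocyte genes (3044 CPM), brown adipocyte genes (7.46 CPM, nearly all of it *PPARGC1A*), fatty acid uptake and binding (3149 CPM) and triglyceride synthesis (713 CPM). For single genes, *C1* read 192 CPM (the others 3667 to 18913) for *FASN*, 691 CPM (the others 4104 to 7889) for *LPL*, 39.3 CPM (the others 1030.1 to 3845) for *THRSP*, 309 CPM (the others 1799.9 to 2985) for *APOE*, which encodes the lipoprotein ligand apolipoprotein E, and 4.44 CPM (the others 108 to 692) for *LEP*. The low adipocyte genes of *C1* stood beside its high mesothelial genes (40593 CPM summed, 3019.5 to 10388 CPM in the others) and a raised share of ENSMMUG00000038258, and the part of either in the low values was not tested.

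The other 3 were high values. *C5* had the highest sum of smooth muscle and pericyte genes (1698 CPM, the others 774 to 894). *C6* had the highest of skeletal muscle genes (33.2 CPM, set by *TNNT3*), and *C2* the highest of interferon-stimulated genes (892 CPM, the others 322 to 469).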

How the results depend on the processing

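The number of genes of high spread depended on the measure and the filter, and that of low spread also on the scaling. Against 686 genes of high spread, the count was 2078 without a filter on low counts, 336 by DESeq2's variance-stabilized values, 287 by edgeR's BCV and 150 above an SD of 1.5. Against 3687 genes of low spread, it was 1834 under an SD of 0.15, 233 with total counts alone as the scale and 0 by BCV, which edgeR shrinks towards a trend and whose smallest value here was 0.155. Leaving out 1 animal at a time gave 472 to 845 and 3554 to 4699, and the lowest high-spread count was that without *C1*. The other 14 and 15 counts stayed within a factor of 1.5, and so did the overlap of the 25 most abundant genes under 11 alternatives. Averaged over the libraries, the summed levels of the cell type lists moved by less than 1 SD in all 220 recalculations. Sums of single libraries could move further. With total counts alone, the endothelial sum of *C2* fell from 1380 to 931 CPM (SD of the sums 314 CPM), and *C2* replaced *C1* as the lowest library. For the genes named for abundance or spread, 911 recalculated SDs kept their side of both thresholds and 34 did not.

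No relation of *ADIPOQ* was called under any alternative that allowed a test, and the signs of 5 of the 6 changed between alternatives that left out 1 animal. Leaving out 1 animal at a time, r ran from -0.338 to 0.509 for *MSLN*, -0.857 to 0.483 for *PECAM1*, -0.623 to 0.687 for *CD163*, -0.752 to 0.05496 for *COL1A1* and -0.742 to 0.7504 for *LEP*, while that of *ACTA2* kept its sign (0.0343 to 0.852). For *MSLN* the highest value was that without *C1* and the lowest that without *C6*, and for *PECAM1*, *CD163*, *COL1A1* and *LEP* the reverse. For *ACTA2* they were those without *C5* and without *C1*. Without *C1* and *C2*, the libraries in which ENSMMUG00000038258 exceeded 5%, it was 0.536 for *MSLN*, -0.896 for *CD163*, -0.00344 for *ACTA2* and -0.854 for *LEP*, over 4 animals. With total counts alone it was -0.01598 for *CD163*. The causes of these changes were not tested. Levels per kilobase were not run, since no transcript lengths were given. No paired analysis was possible because 1 group was used. Depth limits calls of low spread among genes under 5 CPM, where counting error alone gives a median SD of 0.249.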

Other observations

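Some genes were near 0 in 1 or 2 controls and abundant in the rest. Among genes that reached 100 CPM somewhere and lay more than 100-fold below that in another control, 5 had no symbol and were low in both *C3* and *C5*. ENSMMUG00000028682 read 1172, 4074, 3.03, 3204, 2.77 and 3173 CPM in *C1* to *C6*, and ENSMMUG00000028689 538, 1650.3, 0.0865, 1250.2, 0.179 and 1079.5 CPM. The other 3, ENSMMUG00000028703, ENSMMUG00000028683 and ENSMMUG00000028678, held at most 3 counts in *C3* and in *C5* and 41.6 to 901 CPM in the other 4 animals. The source of this split was not tested. ENSMMUG00000010817, also unnamed, read 14.3 CPM in *C1* and 2391 to 13339 CPM elsewhere.

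Among named genes, the anion exchanger *SLC26A7* read 137 CPM in *C6* and at most 4.67 CPM elsewhere. The hair keratin *KRT34* read 12.5 CPM in *C5* and 0 counts in each other control, and the sodium/hydrogen exchanger family gene *SLC9C1* 16.1 CPM in *C3* and at most 1 count elsewhere. *CXCL9*, another interferon-induced chemokine, read 0.171, 18.03, 2.99, 0.759, 1.16 and 1.64 CPM, highest in *C2*, as was *CCL19* at 5.17 CPM. These genes did not pass the filter and entered no count of spread.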
